A study of Trametes versicolor with 3 samples.

Results

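The genes described here are 7 of the gene models of the wood-decaying fungus Trametes versicolor, out of 11480 gene models with at least 1 read. All 7 carry the description acetyl-CoA synthetase-like protein, which 23 gene models share. They are jgi|Trave1|165262, jgi|Trave1|28322, jgi|Trave1|46646, jgi|Trave1|158063, jgi|Trave1|37588, jgi|Trave1|166752 and jgi|Trave1|172884, and are written below as Trave1_ with the number. The description and the KEGG names do not by themselves set the 7 apart from the other gene models with this description. Trave1_71012, outside the 7, has the KEGG names of Trave1_37588, and Trave1_51752, also outside, has none, like Trave1_172884. Members were chosen by this description and by their KEGG names, with their levels in these same libraries already known. Every difference between media is therefore given as a description, without a test.

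Mycelium was collected on day 9, when the mat had reached 4 cm, and 1 RNA library was sequenced from each of 3 media. The media were PDA (commonly potato dextrose agar), a medium with glucose as its carbon source, and a poplar medium. The fungus came from the culture collection as CICC 14001, and the labels name no genetic change. For all 3 libraries the labelled growth protocol gives PDA, which conflicts with the source names that the groups were taken from. With 1 library per medium there is no replicate error, and each value describes that library alone. The deposited unique reads summed to 2.85 M for PDA, 2.68 M for glucose and 2.80 M for poplar.

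Enzymes of this superfamily activate a carboxylic acid with ATP to an acyl-adenylate and then pass the acyl group to coenzyme A. Long-chain acyl-CoA synthetases do so with fatty acids, which then enter beta-oxidation or are built into membrane and storage lipids. The 4-coumarate-CoA ligases act on hydroxycinnamic acids and are best known from plants, where they feed the phenylpropanoid pathway toward lignin. Sequence similarity alone often does not tell which acid a member uses. The description and the KEGG names given below are such similarity matches, and no enzyme activity was measured.

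Of the 7 members, 5 have long-chain acyl-CoA synthetase among their KEGG names. For 3 of them, Trave1_165262, Trave1_28322 and Trave1_46646, it is the single name. Trave1_37588 also has an unnamed ligase entry. Trave1_158063 has that entry too, with acetyl-CoA synthetase beside it. Its gene model is 4923 bases long, against 1629 to 2073 bases for the other members. Trave1_166752 has the names 4-coumarate-CoA ligase, an unnamed ligase and a ribosome assembly protein, and the last of these is not the name of a ligase. Trave1_172884 has no KEGG name.

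Levels are given in RPKM, the reads of a gene model scaled to its length and to the library total, with the exact 95% Poisson interval of the count in parentheses. The interval covers counting error only. None of the 7 members had its highest level on poplar. The 3 members named long-chain acyl-CoA synthetase alone were highest on PDA, and the other 4 were highest on glucose. Over all 10756 gene models with at least 1 RPKM in some library, 37.6% were highest on poplar, 32.1% on glucose and 30.3% on PDA. In RNA from whole mycelium, fewer cells of a kind and less RNA per cell cannot be told apart.

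**Figure D1:**
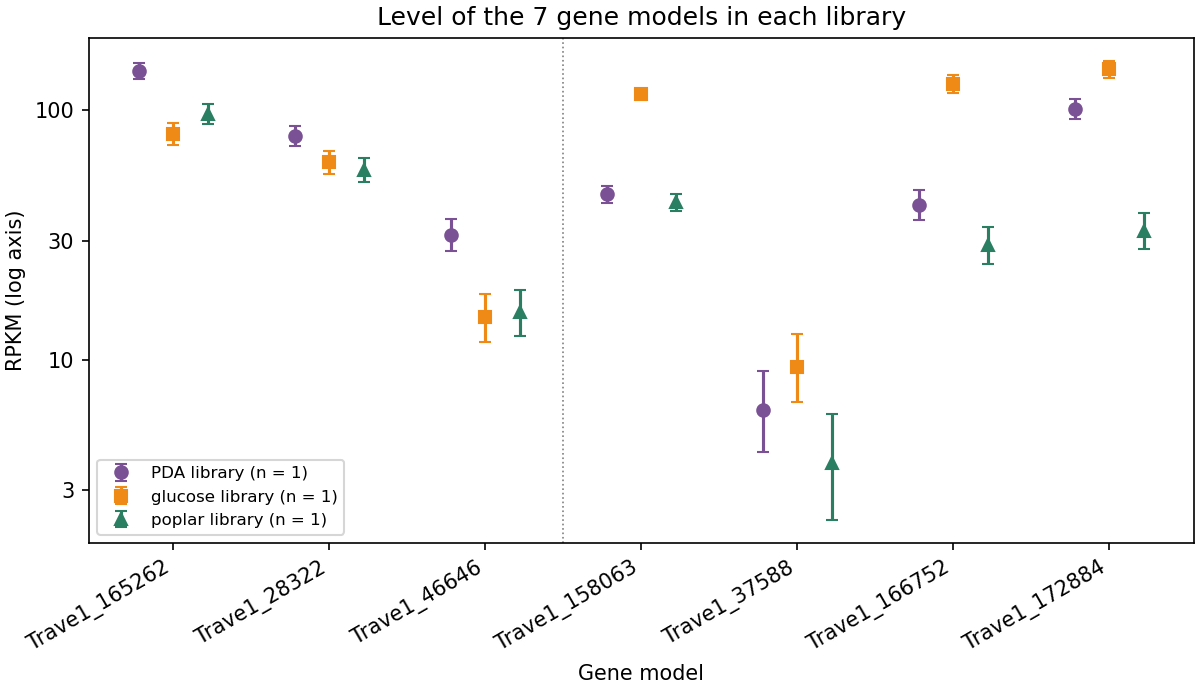
Level of each of the 7 gene models in RPKM on a log axis, with 1 point per library and the exact 95% Poisson interval of its count. To the left of the dotted line the PDA point is the highest of each gene model, and to the right the glucose point.

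Trave1_165262, a long-chain acyl-CoA synthetase by name, had 706 reads on PDA, 371 on glucose and 464 on poplar. These came to 144 RPKM (134 to 155), 80.6 RPKM (72.6 to 89.2) and 96.4 RPKM (87.8 to 106). The PDA interval lay above both others. Its level was 1.79-fold lower on glucose than on PDA (interval of the ratio 1.57 to 2.03) and 1.49-fold lower on poplar than on PDA (1.33 to 1.68). It was the member with the highest level on PDA and on poplar, at rank 1123 of the 10871 gene models listed for PDA and rank 1700 of the 11101 listed for poplar.

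Trave1_28322, with the same single KEGG name, varied least of the 7. It measured 78.7 RPKM on PDA (464 reads), 61.8 on glucose (342 reads) and 57.5 on poplar (333 reads). The highest level was 1.37 times the lowest. Glucose and poplar could not be told apart at this depth, with a poplar over glucose ratio of 0.931 (0.799 to 1.09).

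Trave1_46646 was the lowest of this trio, at 31.6 RPKM on PDA (187 reads), 14.8 on glucose (82 reads) and 15.5 on poplar (90 reads). The glucose and poplar levels overlapped, and both lay below PDA. The level was 2.14-fold lower on glucose than on PDA (1.64 to 2.81) and 2.04-fold lower on poplar than on PDA (1.58 to 2.65). Reads covered 68.5% of the gene model on PDA, 56.4% on glucose and 69.6% on poplar.

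The 4 members highest on glucose differed more between media. Trave1_158063, the long gene model with long-chain acyl-CoA and acetyl-CoA synthetase names, had 647 reads on PDA, 1524 on glucose and 588 on poplar. This was 46.1 RPKM (42.6 to 49.8), 116 RPKM (110 to 121) and 42.7 RPKM (39.3 to 46.3). Glucose stood apart, while PDA and poplar overlapped, with a poplar over PDA ratio of 0.925 (0.826 to 1.04). The glucose level was 2.71-fold above poplar (2.46 to 2.98) and 2.51-fold above PDA (2.29 to 2.75).

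Trave1_166752, the member with the 4-coumarate-CoA ligase name, measured 41.8 RPKM on PDA (203 reads), 128 on glucose (582 reads) and 28.7 on poplar (137 reads). The 3 intervals did not overlap. The glucose level was 4.44-fold above poplar (3.68 to 5.39) and 3.05-fold above PDA (2.60 to 3.60). The poplar level was 1.46-fold below PDA (1.17 to 1.82), so poplar was its lowest medium.

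Trave1_172884, without a KEGG name, measured 101 RPKM on PDA (470 reads), 146 on glucose (637 reads) and 32.9 on poplar (150 reads). Its glucose level of 146 RPKM (135 to 158) and the PDA level of Trave1_165262, 144 RPKM (134 to 155), were the highest of the members, and their intervals overlapped. Here poplar was the library that stood apart, 4.44-fold below glucose (3.71 to 5.34) and 3.08-fold below PDA (2.56 to 3.72). Between PDA and glucose the ratio was 1.44 (1.28 to 1.63).

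Trave1_37588 was the lowest member in all 3 libraries. It had 30 reads on PDA, 42 on glucose and 18 on poplar, or 6.30, 9.39 and 3.85 RPKM. The glucose level was 2.44-fold above poplar (1.37 to 4.50). Neither the glucose over PDA ratio of 1.49 (0.911 to 2.47) nor the poplar over PDA ratio of 0.611 (0.321 to 1.13) could be told from equal levels at this depth.

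Pairs of libraries were compared on RPKM plus 1, among gene models with at least 1 RPKM in either of the pair. A gene is called below where this differed by 2-fold or more. All 7 members met the minimum in every comparison. Each library enters a pair of comparisons, so these are not independent. Because the members were chosen with these levels known, nothing is read from their counts of calls beside the share called over all gene models.

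The comparison of poplar with glucose sets a poplar medium beside a simple sugar. Of the 7 members, 0 were higher and 4 were lower on poplar: Trave1_172884, Trave1_166752, Trave1_158063 and Trave1_37588. Their log2 ratios were −2.12, −2.11, −1.42 and −1.10. The count was 3 with a pseudocount of 5, where Trave1_37588 was at −0.70, and 3 with a minimum of 10 RPKM, which Trave1_37588 does not reach. The trio named long-chain acyl-CoA synthetase alone had ratios from −0.10 to 0.26 and was not called. The median over the members was −1.10, against 0.08 over all 10636 measured gene models, of which 8.1% were called higher and 8.31% lower on poplar. Together the members held 1780 reads on poplar and 3580 on glucose, a 2.10-fold lower share of the library on poplar (1.99 to 2.23).

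Against PDA, all 7 members had a lower level on poplar, but the difference reached 2-fold for Trave1_172884 alone, with a log2 ratio of −1.59. For Trave1_158063 and Trave1_37588, poplar and PDA could not be told apart at this depth. Over all 10506 measured gene models, 42.1% had a ratio below 0, 5.11% were called lower and 10.8% higher. The members' ratios ran from −1.59 to −0.11, with a median of −0.57 against 0.09 over all genes. Trave1_46646, at −0.98, fell just short of the threshold on this scale, although its plain RPKM ratio was over 2. With a pseudocount of 0.1, or with median-of-ratios scaling, it was called and the count of lower members was 2.

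Between glucose and PDA, members went both ways. Trave1_166752 and Trave1_158063 were higher on glucose, with log2 ratios of 1.59 and 1.31, and Trave1_46646 was lower, with −1.05. The other 4 lay between −0.83 and 0.52. The median was 0.51 against 0.01 over all 10487 measured gene models, of which 12.7% were called higher and 6.52% lower on glucose. With a minimum of 10 RPKM, which leaves out Trave1_37588, the members' median was 0.09. The call of Trave1_46646 was lost with a pseudocount of 5.

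**Figure D2:**
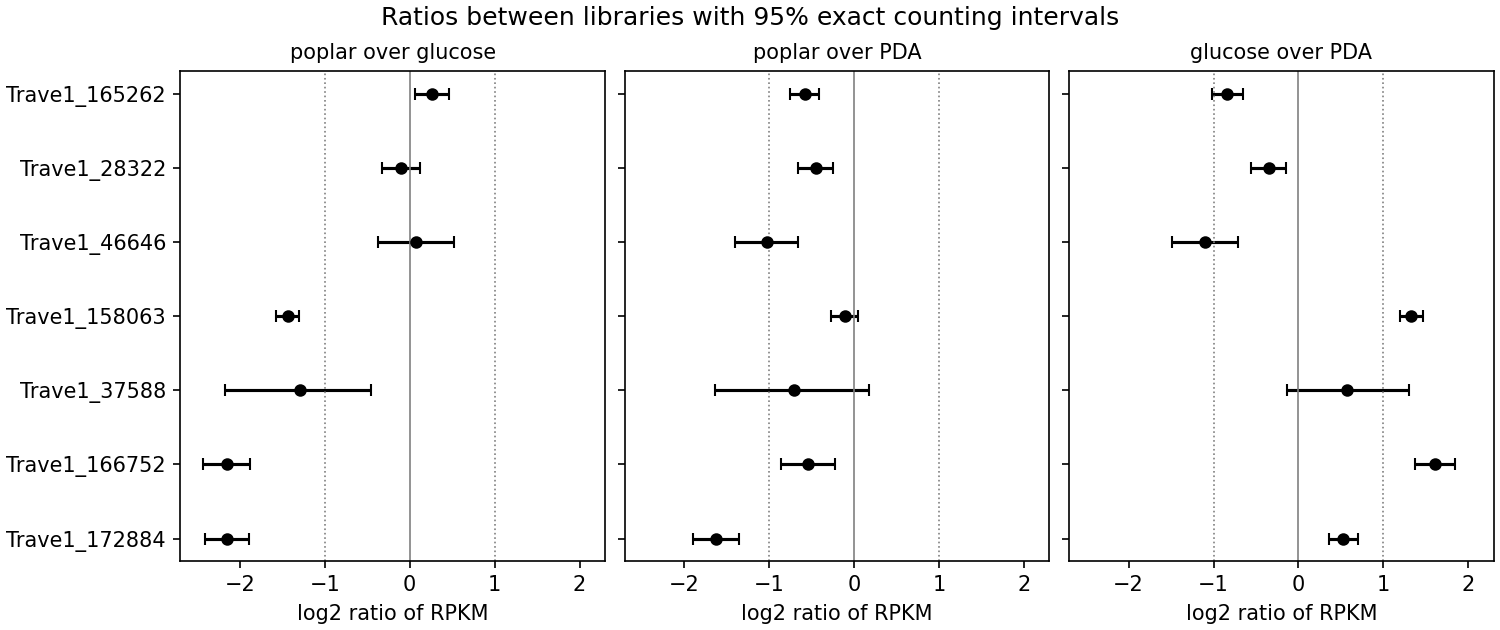
Log2 ratio of RPKM for each of the 7 gene models in the 3 comparisons, with exact 95% counting intervals; solid lines mark equal levels and dotted lines a 2-fold difference. The lower 4 gene models lie left of the solid line for poplar over glucose and right of it for glucose over PDA, while the upper 3 stay near it for poplar over glucose and lie left of it for glucose over PDA.

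Against both other media at once, 2 members were at least 2-fold higher on glucose, Trave1_158063 and Trave1_166752, a pattern that 5.06% of all gene models had. No member was at least 2-fold above both other media on PDA (2.18% of all gene models) or on poplar (3.26%). Trave1_172884 was the one member at least 2-fold below both others on poplar, as were 1.9% of all gene models. The lowest level was on poplar for 5 members, against 22.7% of all gene models, and on glucose for 2, Trave1_165262 and Trave1_46646, against 37.3%. Of the 5, poplar could not be told from PDA for Trave1_158063 and Trave1_37588, nor from glucose for Trave1_28322. For Trave1_46646 glucose and poplar could not be told apart, and with median-of-ratios scaling its log2 ratio of poplar over glucose went from 0.07 to −0.02.

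**Figure D3:**
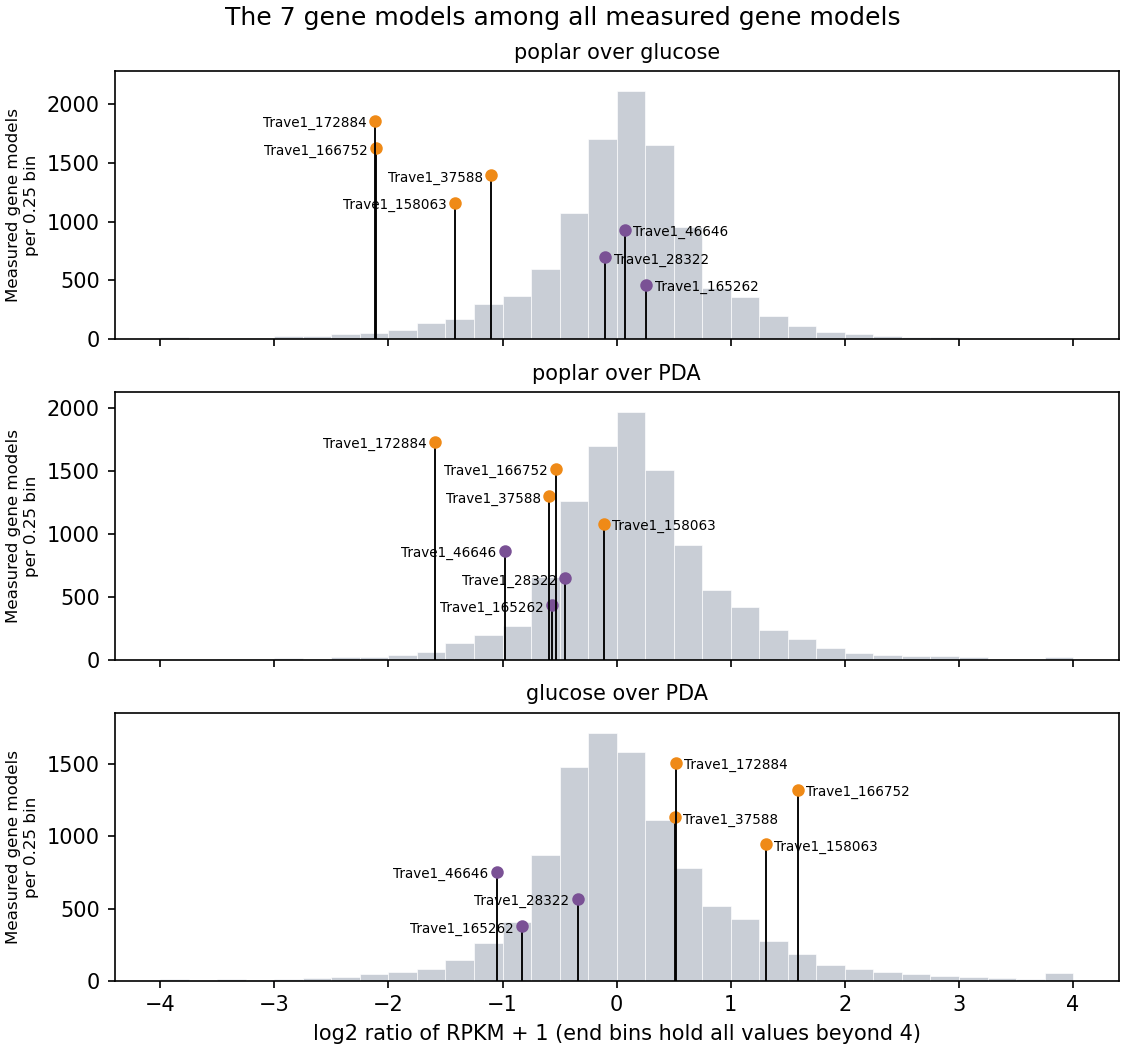
Number of measured gene models per 0.25-wide bin of the log2 ratio of RPKM plus 1 in the 3 comparisons (bars), with the 7 gene models as stems whose height carries no value; purple marks the 3 highest on PDA and orange the 4 highest on glucose. For poplar over glucose, Trave1_172884 and Trave1_166752 lie in the left tail at −2.12 and −2.11, while the purple stems lie in the centre.

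The order of the members by level differed between the media. On PDA it was Trave1_165262, Trave1_172884, Trave1_28322, Trave1_158063, Trave1_166752, Trave1_46646 and Trave1_37588. Of these neighbours, Trave1_158063 and Trave1_166752 could not be told apart, with a ratio of 1.10 (0.941 to 1.30). On glucose, Trave1_172884, Trave1_166752 and Trave1_158063 came first and Trave1_165262 was in the fourth place. The second and the third place were separated by little, 1.10-fold (1.00 to 1.21), and the first and the second by 1.15-fold (1.02 to 1.28). On poplar, Trave1_165262 and Trave1_28322 led, and Trave1_172884 and Trave1_166752 came in the fourth and the fifth place, with a ratio between them of 1.15 (0.902 to 1.46) that includes equal levels.

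Split by KEGG name, a split made after the values were seen, the trio with the long-chain acyl-CoA synthetase name alone summed to 254 RPKM on PDA, 157 on glucose and 169 on poplar. Its reads were 1.60-fold lower on glucose than on PDA (1.47 to 1.75) and did not differ beyond counting error between poplar and glucose, at a ratio of 1.07 (0.969 to 1.18). The other 4 members summed to 195 RPKM on PDA, 399 on glucose and 108 on poplar. They made up 43.4% of the members' summed RPKM on PDA, 71.7% on glucose and 38.9% on poplar. As a share of the members' reads, with no correction for length, this was 49.9% (exact binomial interval 48.0 to 51.8), 77.8% (76.4 to 79.1) and 50.2% (47.8 to 52.5).

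The 16 other gene models with the same description had their highest levels between 0.662 and 40.0 RPKM, below the highest levels of 5 of the 7 members. Of the 15 measured between poplar and glucose, 1 was higher and 3 were lower on poplar, with a median log2 ratio of −0.15. The higher one, Trave1_52132, had 9 reads on poplar and 1 on glucose. They were highest on poplar in 6 cases, on glucose in 6 and on PDA in 4. Their summed RPKM was 199 on PDA, 216 on glucose and 187 on poplar, while the members' sum was 450, 556 and 278. Because the members were chosen with these levels known, the difference was not tested.

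**Figure D4:**
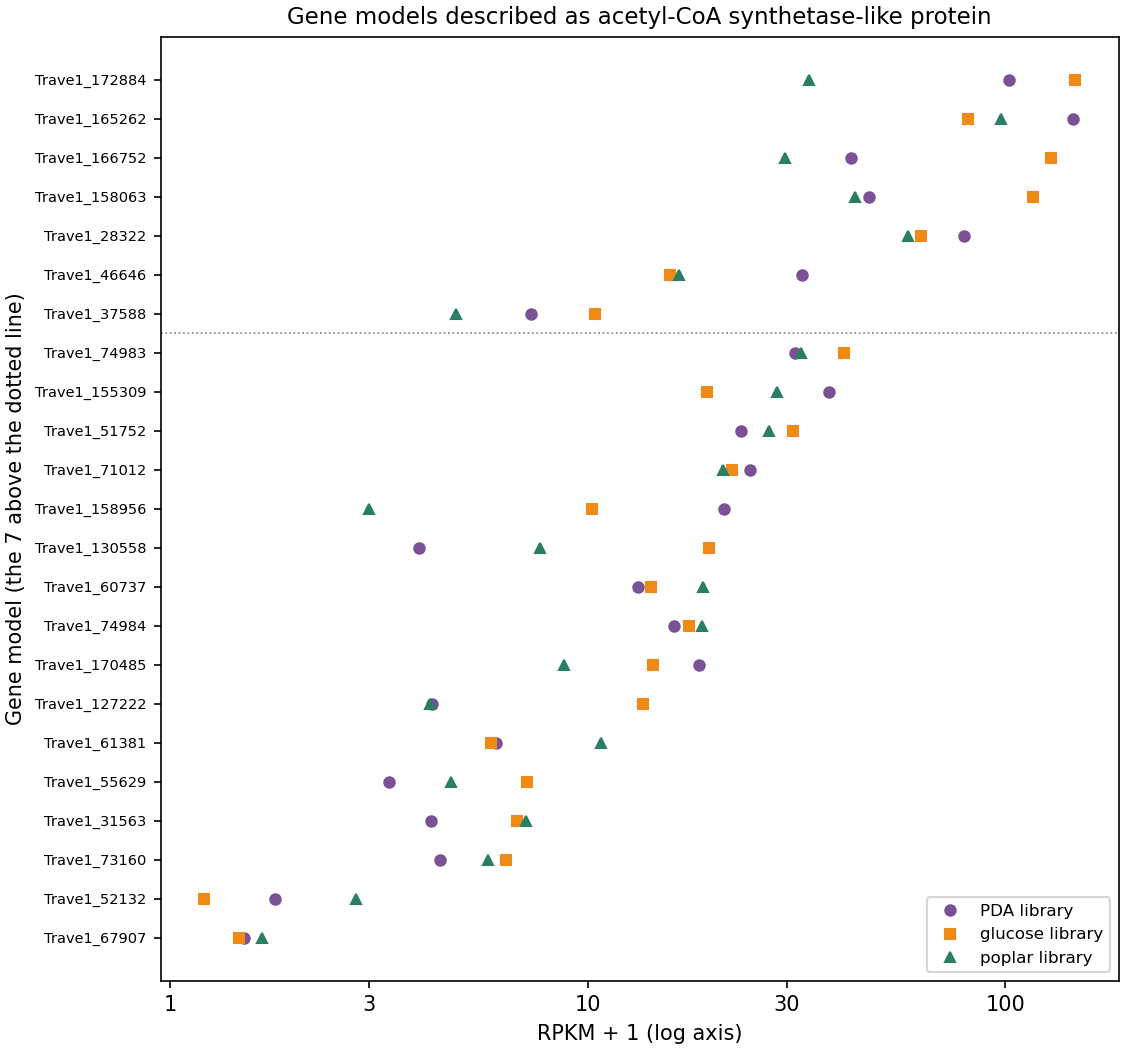
RPKM plus 1 on a log axis in each library for the 23 gene models described as acetyl-CoA synthetase-like protein, with the 7 described here above the dotted line. Trave1_172884, Trave1_165262, Trave1_166752 and Trave1_158063 exceed 100 RPKM in a library, and Trave1_67907 stays below 1 RPKM in all 3.

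Gene models with like KEGG names had a range of profiles. Trave1_67907 has the 3 KEGG names of Trave1_158063 and a gene model of 4857 bases, but it held 7 reads on PDA, 6 on glucose and 9 on poplar, under 1 RPKM in each. Of the 5 other gene models with a 4-coumarate-CoA ligase name, 0 were called either way between poplar and glucose, and their log2 ratios ran from −0.34 to 0.58. All 5 also have the long-chain acyl-CoA synthetase name, which Trave1_166752 lacks. Of these, Trave1_74983, the highest, measured 30.3 RPKM on PDA, 40.0 on glucose and 31.5 on poplar, so it was 1.27-fold lower on poplar than on glucose (1.02 to 1.59). Trave1_155113, described as an AMP-dependent CoA ligase, was called higher on poplar than on PDA, at 12.8 against 5.87 RPKM, with 62 and 29 reads. Its log2 ratio of 1.00 lay on the threshold, and median-of-ratios scaling moved all ratios of this comparison by −0.06, so the call is not firm. Outside the members, 8 measured gene models had the long-chain acyl-CoA synthetase name, the 5 above among them. Between poplar and glucose, 0 of the 8 were called, with a median log2 ratio of 0.10. One of the 8, Trave1_127377, described as a long-chain-fatty-acid-CoA ligase and with the long-chain acyl-CoA synthetase name alone, measured 99.0 RPKM on PDA, 66.8 on glucose and 84.5 on poplar. PDA was thus its highest and glucose its lowest medium, as for Trave1_165262. Trave1_155113, Trave1_127377, Trave1_67907 and Trave1_52132 were chosen after their values were seen.

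A list of 26 adenylate-forming enzymes by description held the 7 members. Of 25 measured between poplar and glucose, 1 was higher and 7 were lower on poplar, with a median log2 ratio of −0.10. Without the members, the lower ones were 3. Against PDA, 0 were higher and 3 lower of 25 measured on poplar (median 0.05), and 5 were higher and 2 lower of 24 measured on glucose (median 0.28). These counts include the members. With the members left out, the medians were 0.28 for poplar over PDA and 0.17 for glucose over PDA. Trave1_127222 measured 3.25 RPKM on PDA, 12.6 on glucose and 3.19 on poplar. Its KEGG names are a ribosome biogenesis protein and L-aminoadipate-semialdehyde dehydrogenase, the latter an enzyme of fungal lysine synthesis. Outside the members, 4 gene models have the dehydrogenase name, and 2 were highest on PDA, 1 on glucose and 1 on poplar. Trave1_155309 and Trave1_170485, given below, are the 2 highest on PDA. Trave1_130558 was 6.31-fold higher on glucose than on PDA (3.48 to 12.4), at 77 against 13 reads, and 2.78-fold higher than on poplar (1.79 to 4.41). Trave1_158956 was highest on PDA, at 20.2 RPKM, 9.24 on glucose and 1.99 on poplar, and its poplar level rested on 9 reads. Trave1_170485 was 2.24-fold lower on poplar than on PDA (1.69 to 2.99). Within this list, the highest levels outside the members were those of Trave1_57355, an acetoacyl-CoA synthetase by name, with 86.1 RPKM on poplar, followed by Trave1_74983 and by Trave1_155309 with 36.8 RPKM on PDA. The acetate-CoA ligase Trave1_67770, which activates acetate and was added after its values were seen because its wording lies outside the list, measured 113 RPKM on PDA, 152 on glucose and 138 on poplar.

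Fatty acids activated by acyl-CoA synthetases are broken down by beta-oxidation. Of the 27 genes of that list, 0 were called either way between poplar and glucose, with a median log2 ratio of 0.01. The wording match leaves out the peroxisomal enoyl-CoA hydratase Trave1_150480, which was called higher on poplar than on glucose at 1.07 and is described with the peroxisomal genes. Against PDA, 3 were higher and 1 was lower on poplar (median 0.29), and 4 were higher and 1 was lower on glucose (median 0.36). The 3-ketoacyl-CoA thiolase Trave1_158608, which carries out the last step of the cycle, measured 30.8 RPKM on PDA, 81.5 on glucose and 74.8 on poplar. It was 2.64-fold higher on glucose than on PDA (2.11 to 3.33), while the poplar over glucose ratio of 0.918 (0.772 to 1.09) included equal levels. The peroxisomal 3-ketoacyl-CoA thiolase Trave1_116449 was instead highest on PDA, at 458 RPKM, against 268 on glucose and 362 on poplar. This gene had the highest level of the list, was not called in any comparison and was added after its values were seen. The acyl-CoA dehydrogenase-like Trave1_24019, of the first step, measured 9.93 RPKM on PDA, 24.8 on glucose and 22.7 on poplar. The thiolase Trave1_159525 was 2.61-fold higher on poplar than on PDA (2.08 to 3.30). Trave1_113725, also described as acyl-CoA dehydrogenase-like, was 2.61-fold lower on poplar than on PDA (1.93 to 3.59). It was also the one lower on glucose. The other two higher on glucose were Trave1_57485 and Trave1_68936, at log2 ratios of 1.09 and 1.13. Between glucose and PDA the list's median was above 0, while the trio named long-chain acyl-CoA synthetase alone had ratios of −0.83, −0.34 and −1.05. Genes of the list lay on both sides of 0 in that comparison, from −1.21 for Trave1_113725 to 1.37 for Trave1_158608. Trave1_116449, the highest of them, was at −0.77, within the range of the trio. The list as a whole therefore does not stand apart from the trio.

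Among 11 genes of fatty acid synthesis, elongation and desaturation, 1 was higher and 1 lower on poplar than on glucose (median 0.08). Against PDA, 0 were higher and 2 lower on poplar (median −0.31), and of 10 measured, 1 was higher and 1 lower on glucose (median −0.33). The one lower on poplar than on glucose was the delta-12 desaturase Trave1_155123, an enzyme that makes linoleic from oleic acid. Like Trave1_166752 it was highest on glucose and lowest on poplar, with 32.1 RPKM on PDA, 90.6 on glucose and 25.6 on poplar, 3.54-fold lower on poplar than on glucose (2.79 to 4.52). A second delta-12 desaturase, Trave1_28733, was highest on PDA like the trio, at 600 RPKM against 212 on glucose and 224 on poplar. Trave1_147284, described as an oleoyl phosphatidylcholine desaturase, was the one higher on poplar than on glucose, at 18.5 against 5.90 RPKM. Trave1_60136, a dihydroceramide desaturase, was 2.44-fold lower on poplar than on PDA (1.89 to 3.16). This list also holds a sterol desaturase and a cyclopropane fatty acid synthase, by wording.

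Lipases release fatty acids, the substrates of long-chain acyl-CoA synthetases. By wording, the lipase list also holds phospholipase C and D entries and a phospholipase-activating protein. Of 26 measured genes of the lipase list, 4 were higher and 2 lower on poplar than on glucose, with a median log2 ratio of 0.06. The carotenoid ester lipases Trave1_48300 and Trave1_72564 were 5.47-fold (4.31 to 7.01) and 4.22-fold (3.55 to 5.04) higher on poplar. The others called higher were the lipase Trave1_30051 (log2 ratio 1.51) and the carotenoid ester lipase Trave1_48263 (1.22). The second lower one, Trave1_168948 (−1.49), is also described as a carotenoid ester lipase, so genes with this description went both ways. Trave1_72578, with the same description, was not called (0.90). The lysophospholipase Trave1_170175, which removes the remaining fatty acid of a lysophospholipid, was 6.59-fold lower on poplar than on glucose (4.87 to 9.10), at 18.9 against 125 RPKM, and measured 25.8 RPKM on PDA. Against PDA, 5 lipases were higher and 0 lower on poplar (median 0.17), namely those 4 and Trave1_54116 (1.34). On glucose, Trave1_170175 and Trave1_170407 (1.02) were higher than on PDA and the phospholipase D-like Trave1_59779 was lower, at 4.65 against 10.9 RPKM (median 0.30).

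Of 11 genes that handle acyl-CoA (thioesterases, CoA-transferases and a carnitine acetyltransferase), 0 were called either way between poplar and glucose (median 0.04) or between glucose and PDA (median 0.00). Between poplar and PDA, 1 was higher, Trave1_169269 at 1.22, and 1 lower (median 0.10). The lower one was the 3-oxoacid CoA-transferase Trave1_70827, 2.90-fold lower (2.60 to 3.23). Of 13 genes with a peroxisomal description, 1 was higher on poplar than on glucose (median 0.16), 2 were higher on poplar than on PDA (median 0.27), 1 was higher on glucose than on PDA (median 0.18), and 0 were lower in any of these. They were the peroxisomal enoyl-CoA hydratase Trave1_150480, which hydrates the unsaturated acyl-CoA of the cycle, with 21.0 RPKM on PDA, 30.2 on glucose and 64.5 on poplar, and the peroxisomal dehydratase Trave1_176045, with 17.2, 38.2 and 44.0 RPKM. Some genes of this list are enzymes of the peroxisome and not of its formation.

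Acetyl-CoA, the product of beta-oxidation, enters the citrate and glyoxylate cycles. Of 9 genes of that list, which by wording also holds a homocitrate synthase and an isopropylmalate synthase, 1 was higher and 0 lower on poplar than on glucose (median 0.21). It was the isocitrate lyase Trave1_166513, the entry enzyme of the glyoxylate cycle, with 196 RPKM on PDA, 52.0 on glucose and 180 on poplar. Its lowest medium was the one where Trave1_158063, Trave1_166752 and Trave1_172884 were highest. A second isocitrate lyase, Trave1_158146 (log2 ratio of poplar over glucose 0.32), and the malate synthase Trave1_56596 (−0.61) were not called. Trave1_166513 was also the 1 gene lower on glucose than on PDA (median −0.07), and none of the list was called between poplar and PDA (median −0.13).

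The list of aromatic conversion had 9 genes, mostly aryl-alcohol dehydrogenases. Of 8 measured, 1 was higher and 2 were lower on poplar than on glucose (median −0.05), 1 was higher and 0 lower on poplar than on PDA (median 0.07), and of 6 measured 1 was higher and 0 lower on glucose than on PDA (median 0.43). Phenylalanine ammonia-lyase, Trave1_173983, makes cinnamic acid from phenylalanine, upstream of the step that 4-coumarate-CoA ligases catalyse in plants. It was the one higher on glucose than on PDA, and measured 150 RPKM on PDA, 327 on glucose and 161 on poplar. Its glucose level was 2.03-fold above poplar (1.88 to 2.19) and 2.19-fold above PDA (2.02 to 2.36). The aryl-alcohol dehydrogenase Trave1_73417 was 2.34-fold lower on poplar than on glucose (1.37 to 4.12). The aryl-alcohol dehydrogenases called higher on poplar rested on 4 reads each, Trave1_122794 against glucose and Trave1_49771 against PDA. Descriptions of plant transcripts (rubisco, photosystem, chlorophyll-binding and poplar or Arabidopsis names) were carried by 0 gene models. Of the other list genes, those given with a log2 ratio alone or with reads alone were chosen after their values were seen.

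**Figure D5:**
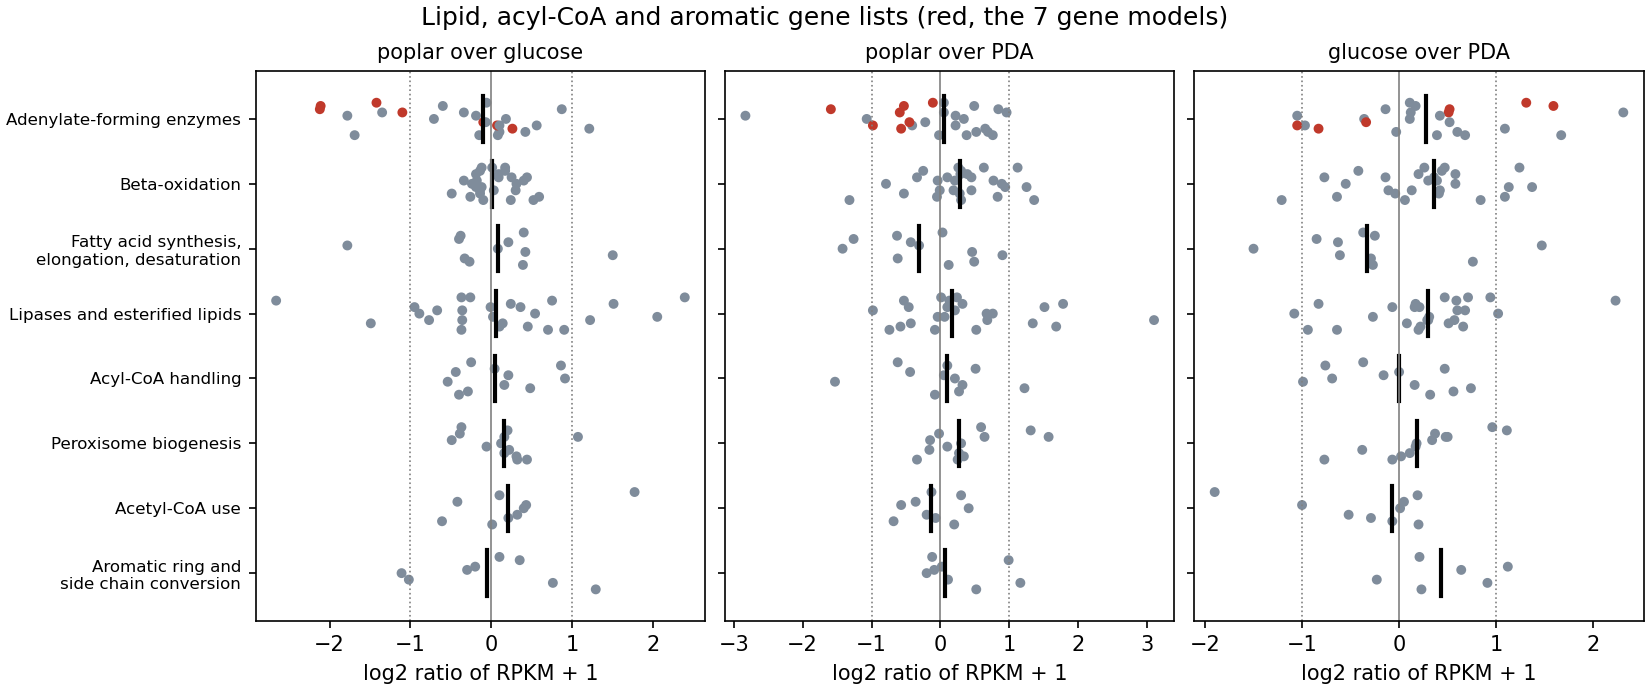
Log2 ratio of RPKM plus 1 for each measured gene of the 8 lists that matched any gene model, with black bars at list medians, a solid line at equal levels and dotted lines at 2-fold. For poplar over glucose, the genes matched to the beta-oxidation list stay within the dotted lines, while 4 of the 7 gene models (red) lie to the left of them.

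Likeness of profile was measured as the Euclidean distance between log2(RPKM + 1) values centred on each gene's mean over the 3 libraries, so that a distance of 0 is the same profile. The 2 members with the widest range, Trave1_172884 and Trave1_166752, were set against 3569 described gene models of at least 10 RPKM in some library. Nearest to Trave1_172884 were the riboflavin kinase Trave1_27590 at 0.112, the aquaporin-like Trave1_113984 at 0.160 and the aldolase-like Trave1_173407 at 0.188. Nearest to Trave1_166752 were the aldo/keto reductase Trave1_133399 at 0.165, the oligopeptide transporter Trave1_155969 at 0.195 and the versatile peroxidase Trave1_74865 at 0.207. The closest of these, Trave1_27590, measured 98.9 RPKM on PDA, 159 on glucose and 34.8 on poplar. Among the members, Trave1_165262 and Trave1_46646 were nearest to each other, at 0.29, and Trave1_166752 and Trave1_46646 farthest apart, at 1.99. Profiles over 3 libraries can be alike in many genes, and Trave1_173407 and Trave1_74865 had 6 reads each on poplar.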

How the data were processed

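RNA sequencing of 1 library per medium was used, grouped by source name. Per the file headers, the authors deposited counts of unique reads, the RPKM, the percent of each gene model covered by reads (coverage), its length, and GO, KEGG and Blast nr annotations. Recomputing RPKM from the deposited counts, the lengths and the count sum gave the deposited values. Lengths were nearly all multiples of 3 (99.4%), so they are coding lengths. Cufflinks 2.0.1 is listed in the submitters' processing notes, with no role. Aligner, genome build and strand handling: not given in the sources used here. Antisense reads and reads of close paralogs could therefore affect a level. Blast nr descriptions refer to strain FP-101664 SS1, not to the strain grown.

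A gene model missing from a table was given 0 reads. One read on 1 kb was worth 0.351 RPKM on PDA, 0.373 on glucose and 0.357 on poplar. Ratios carry the exact conditional 95% interval of the counts; since PCR copies cannot be told from separate molecules, the intervals cover counting error only. Members and lists were chosen with earlier results of these data known. Lists were matched by text patterns on the description. Named genes were all members, the 3 highest adenylate-forming genes, and, in each comparison, up to 3 adenylate-forming genes and up to 2 from every other list, taken by size of ratio where it reached 2-fold and the higher level 10 RPKM, plus the 3 described genes most like each of the 2 members of widest range. Alternatives were pseudocounts of 0.1 and 5, no minimum or 10 RPKM, median-of-ratios scaling, other call rules and other list matching. The calculation of calls and intervals was tested on simulated data. Python 3.11.15, scipy 1.17.1 and pandas 2.3.3 were used.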

Additional observations from a re-analysis of the deposited data

How the results depend on the processing

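The members' log2 ratios recomputed with a pseudocount of 0.1 or 5, or with median-of-ratios scaling, were 21 in each setting. All stayed within the counting interval of the reported value. Changing the minimum drops gene models but cannot alter a ratio, so it is no check of the ratios. One changed sign, Trave1_46646 for poplar over glucose, from 0.07 to −0.02 with that scaling. Median-of-ratios scaling moved all ratios by −0.09 (poplar over glucose), −0.06 (poplar over PDA) and 0.03 (glucose over PDA) on the log2 scale, and the library in which each member was highest gave the same counts. Members lower on poplar than on glucose numbered 3 with a pseudocount of 5 or a minimum of 10 RPKM, and the members' median for glucose over PDA was 0.09 with that minimum. Members lower on poplar than on PDA numbered 2 with a pseudocount of 0.1 or with median-of-ratios scaling, and 3 at a 1.5-fold threshold. Members lower on glucose than on PDA numbered 0 with a pseudocount of 5 and 2 at 1.5-fold. Calls over all lists, 21 for poplar and glucose, 19 for poplar and PDA and 20 for glucose and PDA, came to 13 for glucose and PDA with a pseudocount of 5; the cause was not tested. Matching lists to KEGG names as well as descriptions makes the lists larger and gave 75, 80 and 84 calls. List medians near 0 were not stable in sign. With a minimum of 10 RPKM, those for poplar over glucose went from 0.01 to −0.11 (beta-oxidation) and from 0.04 to −0.25 (acyl-CoA handling), and that of adenylate-forming enzymes for poplar over PDA from 0.05 to −0.31. With KEGG matching, fatty acid synthesis went from −0.31 to 0.02 for poplar over PDA and acyl-CoA handling from 0.00 to −0.16 for glucose over PDA. With median-of-ratios scaling, the medians for poplar over glucose became −0.07 for beta-oxidation, −0.01 for fatty acid synthesis, −0.02 for lipases and −0.06 for acyl-CoA handling, and that of adenylate-forming enzymes for poplar over PDA became −0.01. Of the 3 genes most like Trave1_166752, 1 was kept with a pseudocount of 5. Depth limits Trave1_37588 most, with 18 to 42 reads. No paired analysis was possible because each medium had 1 library.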
